A study of Azumapecten farreri with 9 samples.

Results

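The miR-92 and miR-25 family was examined in small RNA of hemocytes, the blood cells with which a bivalve defends itself, taken from Azumapecten farreri, the Zhikong scallop (Chlamys farreri in the study's title). Its members were all lines of the small RNA table whose name holds miR-92, miR-25, miR-32, miR-235, miR-310 or miR-363, together with the predicted line PC-3p-31_188903, which carries the miR-92 seed. The rule found 10 of the 417 lines, and after lines with the same sequence were merged these were 8 of 396 sequences. The libraries came from 3 groups of scallops, injected with exosomes tied by the submitters to stimulation with lipopolysaccharide (LPS, a bacterial cell wall component), with normal exosomes, or with phosphate-buffered saline (PBS), with 3 libraries per group. Exosomes are small membrane vesicles that carry RNA between cells. The labels give neither the source of the exosomes, the dose, the time after injection nor the age of the animals. They also leave unstated whether each library is a different animal or pool, and the spread behind each p-value may therefore be technical.

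A miRNA is a short RNA that guides a silencing complex to messenger RNAs, mainly through pairing of its seed, bases 2 to 8 from the 5′ end. The miR-92 and miR-25 family is defined by 1 shared seed and is found from insects and nematodes, with miR-310 and miR-235 as relatives, to vertebrates. In mammals miR-92a lies in a cluster with miR-17 and miR-25 in a cluster with miR-106b, and these clusters are best known for promoting proliferation and survival of blood cells and tumours. In Drosophila, miR-92 is known from the maintenance of neural stem cells.

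All 8 member sequences carried the seed ATTGCAC, as did 2 further predicted lines that the names do not place in the family, PC-3p-66_67138 and PC-3p-204_12326. These were the only other lines of the table with that seed. The 7 sequences below make up nearly all of the family's signal and are shown because they differ only in their first base, in bases 9 and 10 and in their 3′ ends. Capitals mark the seed, and letters are written as DNA, as deposited.
lgi-miR-92_1ss9TC: aATTGCACctgtcccggcctgc
PC-3p-204_12326: aATTGCACctgtcccggcctgt
cte-miR-92b_2ss10GC11TG and cte-miR-92c_L+1R-1_1ss10TC: aATTGCACtcgtcccggcctgc
PC-3p-66_67138: aATTGCACtcgtcccggcctgcc
lgi-miR-92_R+2_1ss10TC and dme-miR-92b-3p_R+2_1ss10AC: aATTGCACtcgtcccggcctgcaa
hsa-miR-92b-3p_R-1_1ss21CT: tATTGCACtcgtcccggcctt
PC-3p-31_188903: tATTGCACtcgtcccggccttt

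The sequences fell into 3 cores. Counted from 1 at the 5′ end, the cte-miR-92b line, named for an annelid, differs from lgi-miR-92_1ss9TC, named for a limpet, by C9T and T10C, which lie just outside the seed. PC-3p-31_188903 differs from the cte-miR-92b line by A1T, G21T and C22T. The remaining sequences of the 7 were end forms of these cores. PC-3p-204_12326 is lgi-miR-92_1ss9TC with C22T, PC-3p-66_67138 and lgi-miR-92_R+2_1ss10TC are the cte-miR-92b line plus c or aa, and hsa-miR-92b-3p_R-1_1ss21CT is PC-3p-31_188903 without its last base. The members not shown, chi-miR-92a-3p, hsa-miR-92a-3p_R-1 and bta-miR-25, bear names of goat, human and cattle. They differ from lgi-miR-92_1ss9TC at 3, 2 and 5 bases over the shared length. The second, hsa-miR-92a-3p_R-1, is chi-miR-92a-3p without its last base. Over the shortest length of 21 bases, 15 positions were identical in all 8 members. Names follow the closest registered miRNA of another species, and whether the cores come from separate genes of the scallop was not tested. Reads of forms this similar can be assigned to one another's line, so the split between end forms is uncertain.

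The values are normalized counts, and the 9 libraries held normalized totals of 3977077 to 6309624 over the 396 sequences. Over the 9 libraries 99.73% of the 1880 values above 0 were whole multiples of 1 step per library (tolerance 0.01 reads), on which reading the libraries held 7017983 to 15596034 reads and the lowest listed value was 5 reads in 8 of 9 libraries. A line listed at 0 can therefore hold fewer than 5 reads. The table holds small RNAs only, so the hemocyte label could not be checked against protein markers of that cell type. Among miRNAs best known from other tissues, the summed level of 6 muscle sequences (miR-1 and miR-133 lines) was 138182 to 220465 with LPS exosomes, 179163 to 230113 with normal exosomes and 132549 to 206255 in PBS. The muscle sum was nearly all mle-miR-133-3p_2ss15TC19TC (215898 of 220465 in LPS exosomes replicate 1). In that library mle-miR-1-3p_1ss21AT stood at 4507. The 4 neural sequences (miR-7, miR-9 and miR-124 lines) summed to 401.2 to 832.4, 206.9 to 727.5 and 500.7 to 607.7 in the same order of groups. This sum was nearly all lgi-miR-7 (823.7 of 832.4 in LPS exosomes replicate 1). No miR-9 or miR-124 line was above 6.62 in any library. The 4 gut and endocrine sequences (miR-216, miR-375 and miR-194 lines) summed to 731.6 to 886.3, 411.1 to 588.1 and 459.2 to 647.2, in that order again. The miR-194 line, aca-miR-194-5p, is also counted below among the 36 sequences of families known from vertebrates. Its highest library was normal exosomes replicate 2 (100.1). The muscle and neural sums overlapped between all groups and none of their 5 tested sequences passed the test; in the third list mle-miR-216b-5p, 1 of 3 tested, was higher with LPS exosomes than with normal exosomes (log2 fold change 1.26 ± 0.26, SE; limma adjusted p = 0.0291). mle-miR-375-3p of the same list did not pass and had fold changes of the opposite sign, -0.95 ± 0.33 with LPS exosomes vs normal exosomes and -1.09 ± 0.33 with LPS exosomes vs PBS (log2, SE; limma adjusted p = 0.159 and 0.0868). The part of these tissues in the results below was not tested.

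The family held 3.004% ± 0.333 of the normalized total with LPS exosomes, 2.61% ± 0.300 with normal exosomes and 4.21% ± 1.96 in PBS (SD, n = 3 each). PBS replicate 1 stood apart. It gave 6.46% of its total to the members, and the other 8 libraries gave between 2.36% and 3.32%. As all libraries are bulk samples, a change in the number of cells of 1 type and a change in RNA per cell cannot be told apart.

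**Figure D1:**
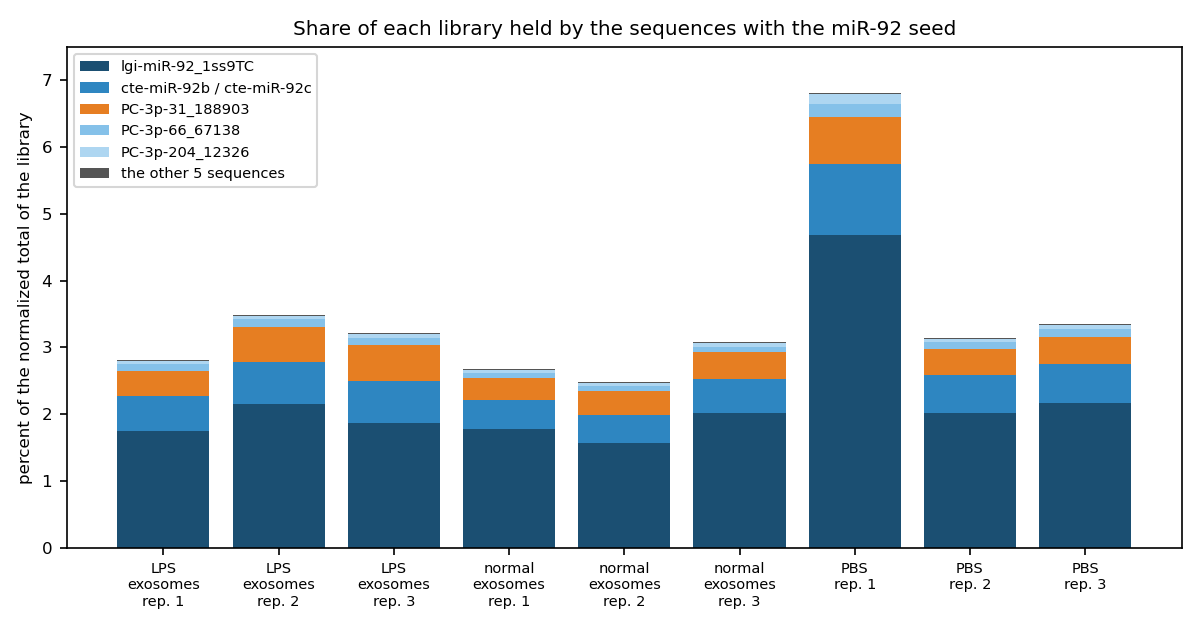
Share of each library's normalized total (y axis, percent) held by the 10 sequences with the miR-92 seed, for each library (x axis), stacked by sequence. PBS replicate 1 stands above the other 8 libraries, and lgi-miR-92_1ss9TC makes up the largest part of every bar.

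lgi-miR-92_1ss9TC was the sixth most abundant sequence of the table by mean, the cte-miR-92b line ranked 11 and PC-3p-31_188903 ranked 13. They held 63.9% ± 3.02, 17.4% ± 1.29 and 13.2% ± 1.84 of the signal with this seed (SD, n = 9). The order of levels was the same in all 9 libraries for the first 8 sequences: these 3 were followed by PC-3p-66_67138, PC-3p-204_12326, hsa-miR-92b-3p_R-1_1ss21CT, lgi-miR-92_R+2_1ss10TC and chi-miR-92a-3p. The closest neighbours in that order were the cte-miR-92b line and PC-3p-31_188903, whose levels lay at least 1.18-fold apart in every library. All 8 are 21 to 24 bases long, and no correction for length was made. Whether sequences with different ends are captured equally in these libraries was not tested, so the shares are shares of signal. The family spans a wide range, since PC-3p-31_188903 averaged 22167 and chi-miR-92a-3p 14.0 over all libraries.

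lgi-miR-92_1ss9TC, the main form, had values of 91568, 97570 and 74539 with LPS exosomes, 112312, 89383 and 109906 with normal exosomes, and 198723, 116705 and 107969 in PBS. All 3 LPS exosome libraries lay below all 3 PBS libraries, while normal exosomes overlapped both other groups. PBS replicate 1 was 1.70 times the next PBS library. The log2 fold change was -0.64 ± 0.23 with LPS exosomes vs PBS (SE; 95% interval -1.16 to -0.12; limma adjusted p = 0.158) and -0.39 ± 0.23 with normal exosomes vs PBS (limma adjusted p = 0.428). Neither passed the threshold, an adjusted p under 0.05 over all 154 tested sequences. Without PBS replicate 1 these differences were -0.36 and -0.12.

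The second core, the cte-miR-92b line, stood at 27783, 28200 and 24816 with LPS exosomes, at 26784, 24246 and 27642 with normal exosomes, and at 45051, 32639 and 29383 in PBS. Here both exosome groups lay wholly below PBS and overlapped each other. The log2 fold changes were -0.38 ± 0.17 with LPS exosomes vs PBS (SE; limma adjusted p = 0.191) and -0.42 ± 0.17 with normal exosomes vs PBS (limma adjusted p = 0.236), so this member did not pass either. Without PBS replicate 1 they were -0.20 and -0.24. Both comparisons use the same 3 PBS libraries.

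The third core, PC-3p-31_188903, had 19413, 23701 and 21104 with LPS exosomes, 20770, 20273 and 22050 with normal exosomes, and 29893, 22440 and 19862 in PBS. Its groups overlapped in every comparison. The log2 fold changes against PBS were -0.15 ± 0.17 for LPS exosomes and -0.17 ± 0.17 for normal exosomes (SE), with limma adjusted p of 0.654 and 0.609. Their 95% intervals, -0.53 to 0.22 and -0.55 to 0.20, leave room for differences in both directions. Without PBS replicate 1 the 2 values were 0.02 and -0.01.

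**Figure D2:**
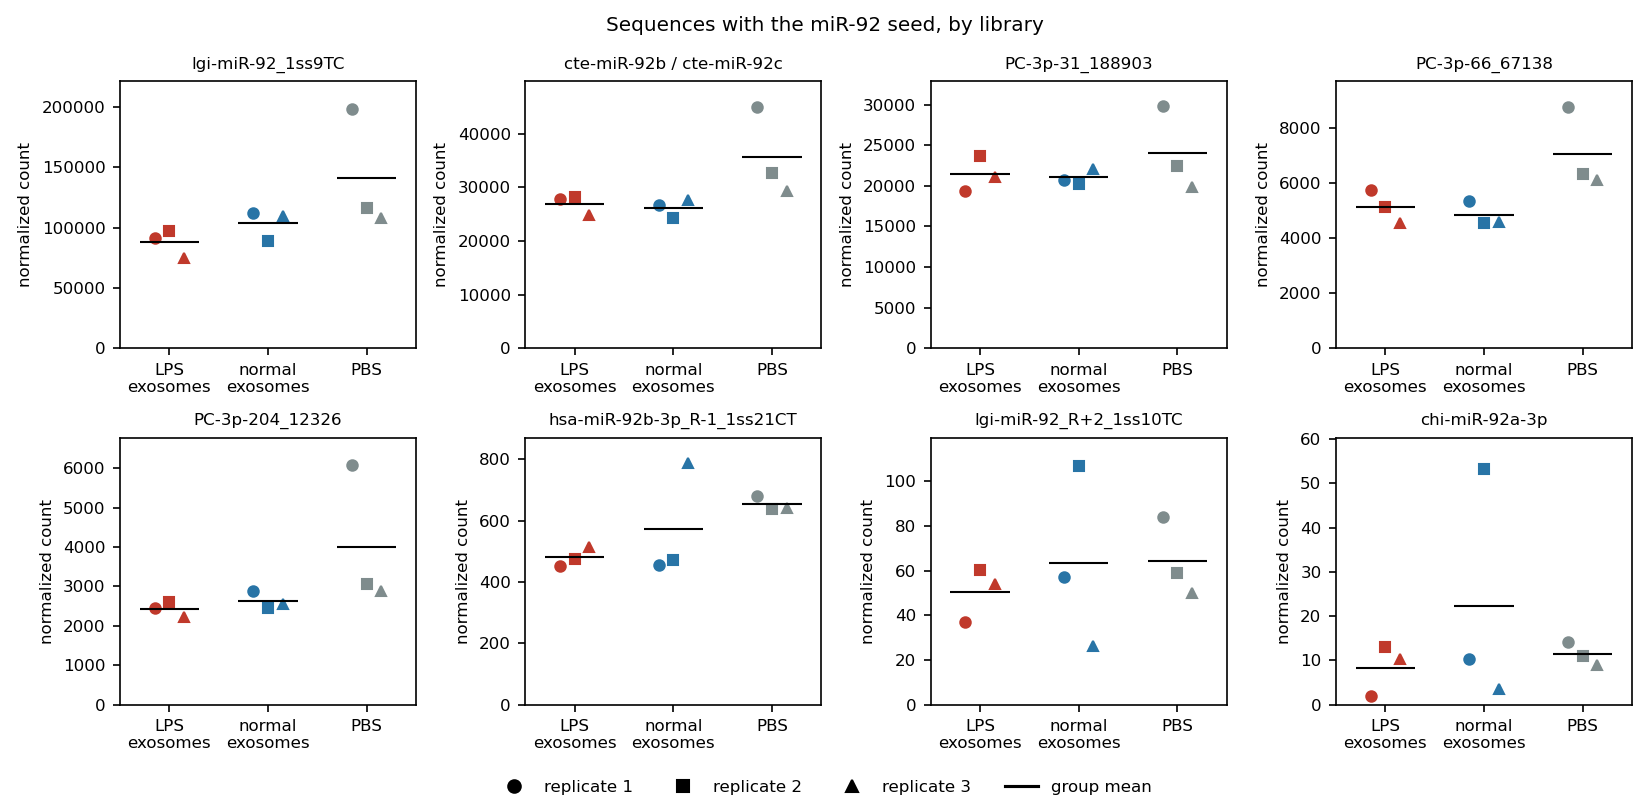
Normalized counts (y axes, linear from 0, a scale per panel) of the 8 most abundant sequences with the miR-92 seed in each library, by group (x axis); points are libraries and lines are group means. PBS replicate 1 is the highest library in the first 5 panels, and normal exosomes replicate 2 is the highest for lgi-miR-92_R+2_1ss10TC and chi-miR-92a-3p.

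The end forms had lower levels. hsa-miR-92b-3p_R-1_1ss21CT, the short form of PC-3p-31_188903, stood at 451.9, 476.4 and 513.4 with LPS exosomes, 455.7, 473.2 and 789.6 with normal exosomes, and 681.3, 638.0 and 643.0 in PBS. Its LPS exosome libraries lay below its PBS libraries, and normal exosomes replicate 3 was the highest of all 9 (log2 fold change -0.45 ± 0.24 with LPS exosomes vs PBS and -0.24 ± 0.24 with normal exosomes vs PBS, SE; limma adjusted p = 0.303 and 0.609). lgi-miR-92_R+2_1ss10TC, the cte-miR-92b line plus aa, had 37.1, 60.4 and 53.8 with LPS exosomes, 57.3, 106.6 and 26.2 with normal exosomes, and 83.8, 59.0 and 49.9 in PBS. The normal exosome libraries of this form held both its highest and its lowest value, and its log2 fold changes against PBS were -0.34 ± 0.50 with LPS exosomes and -0.20 ± 0.50 with normal exosomes (SE; limma adjusted p = 0.780 and 0.884). On leaving out a library, the value of hsa-miR-92b-3p_R-1_1ss21CT with normal exosomes vs PBS ran from -0.49 without normal exosomes replicate 3 to -0.10 without normal exosomes replicate 1, with -0.12 without normal exosomes replicate 2. That of lgi-miR-92_R+2_1ss10TC with LPS exosomes vs PBS ran from -0.50 without PBS replicate 3 to -0.13 without PBS replicate 1, with -0.14 without LPS exosomes replicate 1.

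The 2 further lines with the seed gave values close in pattern to the cores they extend or vary. PC-3p-66_67138 stood at 5754, 5158 and 4544 with LPS exosomes, 5341, 4562 and 4596 with normal exosomes, and 8776, 6335 and 6117 in PBS, with both exosome groups below PBS by these deposited values. Its log2 fold changes were -0.44 ± 0.18 with LPS exosomes and -0.53 ± 0.18 with normal exosomes (SE), with limma adjusted p of 0.171 and 0.140. PC-3p-204_12326 had 2449, 2594 and 2220 with LPS exosomes, 2892, 2465 and 2549 with normal exosomes, and 6083, 3053 and 2881 in PBS. Its LPS exosome libraries lay below PBS (log2 fold change -0.64 ± 0.27, SE; limma adjusted p = 0.177), and normal exosomes replicate 1 overlapped PBS. Without PBS replicate 1 the log2 fold change of PC-3p-66_67138 over PBS was -0.28 for LPS exosomes and -0.37 for normal exosomes, and that of PC-3p-204_12326 was -0.30 and -0.17.

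Of the 8 members, 6 reached a value of 10 in 3 or more libraries and were tested. None of the 6 passed in LPS exosomes vs PBS, where 4.55% of all tested sequences were called by limma, in normal exosomes vs PBS, where 5.19% were, or in LPS exosomes vs normal exosomes, where 4.55% were. At an unadjusted p under 0.05 the members numbered 2, 1 and 0 of 6 in these comparisons, beside 25.3%, 16.9% and 16.9% of all tested sequences. These were lgi-miR-92_1ss9TC and the cte-miR-92b line with LPS exosomes vs PBS, and the cte-miR-92b line with normal exosomes vs PBS.

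The fold changes of the tested members against PBS were below 0 for 6 of 6 with LPS exosomes and 5 of 6 with normal exosomes, against 77 and 76 of all 154 tested sequences. Their medians were -0.41 and -0.22, where the medians of all tested sequences were -0.02 and 0.01. With every library brought to 1 total, the medians of all sequences moved to 0.10 and -0.21 and those of the members to -0.29 and -0.44, so that the members' medians lay 0.39 and 0.23 below those of all sequences on either scale. Without PBS replicate 1 the members' medians were -0.28 with LPS exosomes and -0.06 with normal exosomes, with 5 of 6 and 4 of 6 below 0, and the medians of all sequences were -0.19 and 0.01. Most of these members share sequence or core, and the PBS libraries are shared by both comparisons, so the members are not independent of each other.

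**Figure D3:**
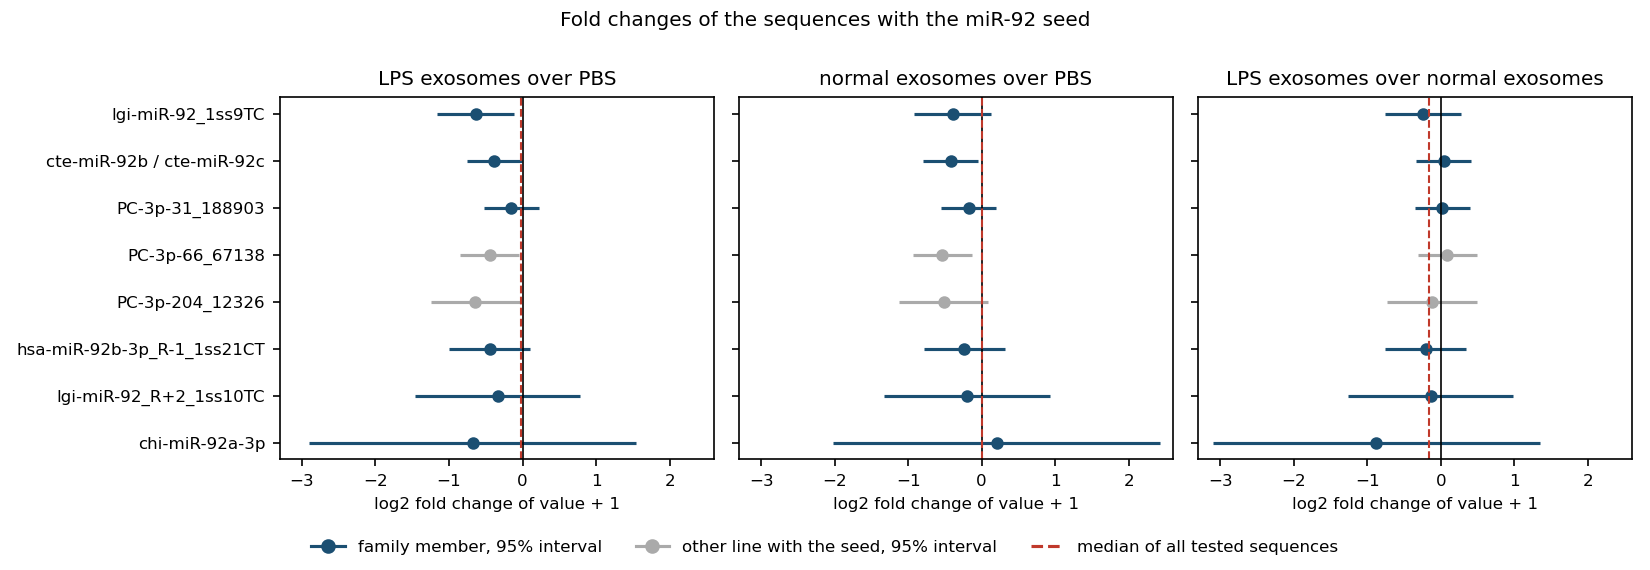
Log2 fold changes of value + 1 (x axes) for the 8 tested sequences with the seed (y axis) in the 3 comparisons; bars are limma 95% intervals and the dashed line is the median of all 154 tested sequences. The points of all 8 lie below 0 in LPS exosomes over PBS, with lgi-miR-92_1ss9TC at -0.64, and the widest interval in each panel is that of chi-miR-92a-3p.

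Separation of the groups depended on the scale. By deposited values, 3 of 6 tested members had all LPS exosome libraries below all PBS libraries, as did 17.5% of all tested sequences, and 1 of 6, the cte-miR-92b line, had all normal exosome libraries below PBS, as did 12.3%; none lay wholly above PBS with LPS exosomes (12.3% of all) or with normal exosomes (13.6%). Between LPS exosomes and normal exosomes 0 of 6 lay wholly below (13.6%) or above (12.3%). As shares of the library total, 0 of 6 lay wholly below PBS with LPS exosomes (9.74% of all sequences) and 2 of 6, lgi-miR-92_1ss9TC and the cte-miR-92b line, with normal exosomes (17.5%); none lay above PBS (12.3% with LPS exosomes and 5.19% with normal exosomes). On that scale the cte-miR-92b line was the 1 member whose LPS exosome libraries all lay above the normal exosome libraries (37 of all 154 sequences), and 0 lay below (3.25%). As shares of the total, lgi-miR-92_1ss9TC held 1.74%, 2.16% and 1.87% with LPS exosomes and 1.78%, 1.57% and 2.02% with normal exosomes, against 4.68%, 2.02% and 2.17% in PBS.

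Between LPS exosomes and normal exosomes no core passed the test. The log2 fold changes were -0.24 ± 0.23 for lgi-miR-92_1ss9TC, 0.04 ± 0.17 for the cte-miR-92b line and 0.02 ± 0.17 for PC-3p-31_188903 (SE), with limma adjusted p of 0.622, 0.933 and 0.949. The intervals were -0.76 to 0.28, -0.34 to 0.42 and -0.35 to 0.39. Under equal totals the differences were 0.11 for lgi-miR-92_1ss9TC, 0.39 for the cte-miR-92b line and 0.37 for PC-3p-31_188903, and the median of all tested sequences moved to 0.16, against -0.16 by deposited values. The members' median lay within 0.02 of the median of all sequences on both scales.

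Ratios between forms within a library do not depend on how libraries were scaled. PC-3p-66_67138 made up 19.2% ± 1.32 of the cte-miR-92b level over all 9 libraries (SD; 16.6% to 20.8%), and PC-3p-204_12326 made up 2.70% ± 0.219 of lgi-miR-92_1ss9TC (2.32% to 3.06%). PBS replicate 1, where both cores had their highest values, lay within the range of the other libraries for the first proportion (19.5%) and gave the highest of the second (3.06%). For the 2 pairs of tested members of which 1 sequence contains the other, the log2 ratio of longer to shorter form was compared between groups by an exact permutation test of the F statistic over all 280 splits. PC-3p-31_188903 over hsa-miR-92b-3p_R-1_1ss21CT had mean log2 ratios of 5.47 ± 0.14 with LPS exosomes, 5.24 ± 0.38 with normal exosomes and 5.18 ± 0.26 in PBS (SD, n = 3; exact permutation p = 0.493, adjusted p = 0.900). lgi-miR-92_R+2_1ss10TC over the cte-miR-92b line gave -9.06 ± 0.39, -8.88 ± 1.09 and -9.11 ± 0.06 in the same order (exact permutation p = 0.900, adjusted p = 0.900).

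The proportions of the 3 cores to each other were compared in the same way. The cte-miR-92b line stood at 30.3%, 28.9% and 33.3% of the lgi-miR-92_1ss9TC level with LPS exosomes, 23.8%, 27.1% and 25.2% with normal exosomes, and 22.7%, 28.0% and 27.2% in PBS. All LPS exosome libraries lay above the other 6. PC-3p-31_188903 stood at 21.2%, 24.3% and 28.3% of lgi-miR-92_1ss9TC with LPS exosomes, 18.5%, 22.7% and 20.1% with normal exosomes, and 15.04%, 19.2% and 18.4% in PBS, where the LPS exosome libraries lay above PBS and overlapped normal exosomes. The ratio of PC-3p-31_188903 to the cte-miR-92b line averaged 79.7% ± 8.48 with LPS exosomes, 80.3% ± 3.07 with normal exosomes and 67.6% ± 1.20 in PBS (SD, n = 3). These 3 pairs were chosen for a test after their values had been seen. The exact permutation p was 0.0679, 0.0429 and 0.0643, and 0.0679 for each after Benjamini-Hochberg adjustment over the 3 pairs, so none passed; the smallest p possible was 0.00357.

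**Figure D4:**
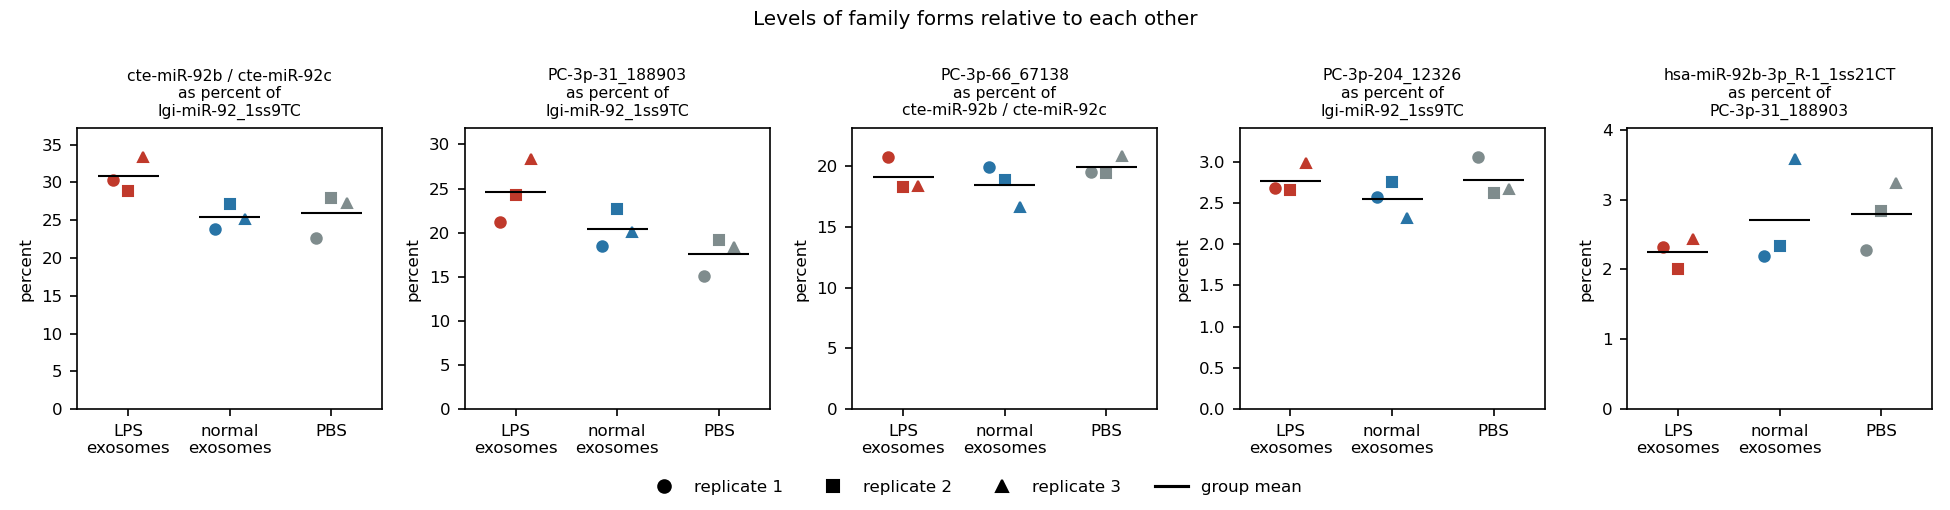
Level of 1 form as a percent of another within each library (y axes, linear from 0), by group (x axis); points are libraries and lines are group means. PC-3p-66_67138 lies between 16.6% and 20.8% of its core in all libraries, and the cte-miR-92b line has its highest proportions to lgi-miR-92_1ss9TC, 28.9% to 33.3%, with LPS exosomes.

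Lines of most similar pattern were sought by Pearson's r of log2(value + 1) over the 9 libraries, given as a description, since libraries share their scaling and depth. For lgi-miR-92_1ss9TC the 5 closest non-members were PC-3p-204_12326 (r = 0.963), PC-3p-66_67138 (0.865), PC-3p-1430_1100 (0.823), PC-3p-308_7012 (0.757) and PC-3p-6939_185 (0.750). For the cte-miR-92b line they were PC-3p-204_12326 (0.952), PC-3p-66_67138 (0.946), PC-3p-1430_1100 (0.787), PC-3p-6939_185 (0.765) and PC-3p-2785_518 (0.746). Over all 9 libraries the closest 2 in both lists were the further lines with the seed, an order that did not hold without PBS replicate 1. There PC-3p-204_12326 had an r of 0.909 with lgi-miR-92_1ss9TC and 0.768 with the cte-miR-92b line, and PC-3p-66_67138 had 0.572 and 0.842. Without that library PC-3p-308_7012 had an r of 0.591 with lgi-miR-92_1ss9TC, the r of PC-3p-6939_185 was -0.26 with lgi-miR-92_1ss9TC and -0.35 with the cte-miR-92b line, that of PC-3p-2785_518 was -0.09, and that of PC-3p-1430_1100 was 0.841 and 0.798. Among the cores, r between lgi-miR-92_1ss9TC and the cte-miR-92b line was 0.932 (0.728 without PBS replicate 1), and between lgi-miR-92_1ss9TC and PC-3p-31_188903 it was 0.808 (0.231).

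A miRNA is cut from a hairpin as a duplex of 2 arms, and the members are all of the 3′ arm type that miR-92 is known for. None of the members is named for the 5p arm. In a search of all 396 sequences for pairing with the 3 cores (RNAduplex of ViennaRNA), the predicted line PC-5p-3312_433 paired best with the cte-miR-92b line (-22.6 kcal/mol, 16 of its bases paired) and with PC-3p-31_188903 (-22.9 kcal/mol, 17 bases), and second best with lgi-miR-92_1ss9TC (-21.8 kcal/mol; aca-miR-214-3p gave -22.5). aca-miR-214-3p, listed above 0 in normal exosomes replicate 2 alone (4.63), gave -21.0 kcal/mol with the cte-miR-92b line. RNAduplex gives an energy for any 2 sequences, and the cores share most of their bases, so the 3 results are not independent. PC-5p-3312_433 is shown as the only line among the 3 best for every core. It was chosen after the sequences had been seen.
PC-5p-3312_433: aggtctggacctgtgtaatatttgg
Its values were 45.9, 96.1 and 90.7 with LPS exosomes, 84.0, 69.5 and 20.97 with normal exosomes, and 99.5, 67.3 and 68.3 in PBS, which is 0.0430% ± 0.0172 of the signal with the miR-92 seed (SD, n = 9). Its log2 fold changes against PBS were -0.06 ± 0.54 with LPS exosomes and -0.62 ± 0.54 with normal exosomes (SE; limma adjusted p = 0.937 and 0.575). Over the 9 libraries PC-5p-3312_433 had an r of 0.128 with lgi-miR-92_1ss9TC, 0.229 with the cte-miR-92b line and 0.319 with PC-3p-31_188903. Whether PC-5p-3312_433 shares a hairpin with any member was not tested, since no genome was used here.

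Another 3 members, chi-miR-92a-3p, hsa-miR-92a-3p_R-1 and bta-miR-25, were low and uneven, unlike hsa-miR-92b-3p_R-1_1ss21CT, which is also named for a mammal. chi-miR-92a-3p stood at 1.82, 12.9 and 10.2 with LPS exosomes, 10.2, 53.3 and 3.50 with normal exosomes, and 14.1, 11.03 and 8.93 in PBS. Its highest library was normal exosomes replicate 2. Only there were hsa-miR-92a-3p_R-1 (4.63), the short form of chi-miR-92a-3p, and bta-miR-25 (6.49) listed above 0. Neither of these passed the filter on low values, and the log2 fold change of chi-miR-92a-3p was -0.68 ± 0.99 for LPS exosomes over PBS and 0.20 ± 0.99 for normal exosomes over PBS (SE; limma adjusted p = 0.780 and 0.988). Without normal exosomes replicate 2 the second was -0.78.

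The same library also had the highest summed level of other miRNAs named for vertebrate families. The partners of miR-92a and miR-25 in the vertebrate clusters, miR-17, miR-18, miR-19, miR-20, miR-93 and miR-106, were represented by 3 sequences, none of which passed the filter. hsa-miR-93-5p (5.56) and hsa-miR-106b-3p_L+2R-2 (2.32) were listed above 0 in normal exosomes replicate 2 alone, and aca-miR-20a-5p_R+1 (5.67) in normal exosomes replicate 1 alone. Of 36 sequences from families known from vertebrates, the cluster partners among them, 24 had their highest value in normal exosomes replicate 2, 6 in PBS replicate 2 and at most 2 in any other library. Their summed level was 126.4 to 740.7 with LPS exosomes, 275.4 to 2029 with normal exosomes and 170.9 to 1327 in PBS, and 12 of the 36 passed the filter, with 0 called in any comparison. miR-122, the main miRNA of vertebrate liver, had its aca-miR-122-5p_R+1 line at 523.7 in normal exosomes replicate 2 and at 21.6 to 157.5 in the other libraries. By contrast, aca-miR-143-3p_R+1 of the same list was highest in PBS replicate 2 (604.3) and stood at 206.7 in normal exosomes replicate 2. The part of these sequences in the level of chi-miR-92a-3p was not tested. The lgi-miR-92_R+2_1ss10TC form, also highest in normal exosomes replicate 2, had an r of 0.903 with chi-miR-92a-3p over the 9 libraries. By the steps described above, chi-miR-92a-3p held 115 reads in normal exosomes replicate 2 and 5 to 26 in the other libraries. The r without normal exosomes replicate 2 was not computed.

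**Figure D5:**
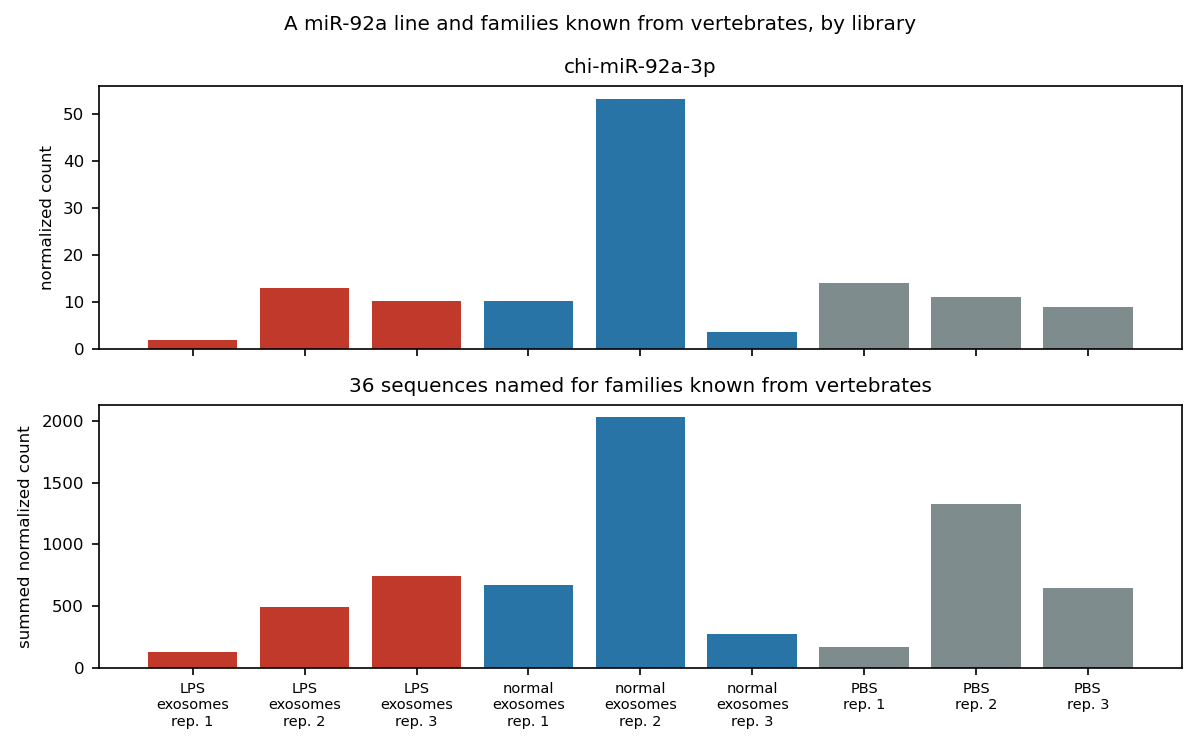
Normalized count of chi-miR-92a-3p (top) and summed normalized count of 36 sequences named for families known from vertebrates (bottom) in each library (x axis). Both are highest in normal exosomes replicate 2, at 53.3 and 2029.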

How the data were processed

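Per the labels' protocols, TruSeq small RNA libraries were read on an Illumina HiSeq, and the ACGT101-miR program filtered out adapter dimers, junk, other RNA classes and repeats. The deposited table gives 1 signal value per line and library, a normalized count per the file headers. The normalization, aligner and genome build are not given in the sources used. Lines of equal sequence held equal values and were merged. The 154 of 396 sequences that reached 10 in 3 or more of 9 libraries were tested with limma 3.58.1 in R 4.3.3 (trend, robust) on log2(value + 1), which understates changes of low lines, as 3 group means with Benjamini-Hochberg adjustment. Pairing used ViennaRNA 2.7.2.

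Named were all members, other lines with the seed, the 5 lines closest in pattern to each of the 2 most abundant members, and cluster partners. PC-5p-3312_433, aca-miR-214-3p, lgi-miR-7, mle-miR-133-3p_2ss15TC19TC, mle-miR-1-3p_1ss21AT, mle-miR-216b-5p, mle-miR-375-3p, aca-miR-194-5p, aca-miR-122-5p_R+1 and aca-miR-143-3p_R+1 were named after their values were seen. Members, lists and tests were chosen with earlier results of these data known. Simulated data with known changes were used to test the limma code. Alternatives covered scaling, pseudocounts, filters, limma settings, a replicate block and leaving out each library; the medians and further seed lines without PBS replicate 1 were added after seeing the data.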

Additional observations from a re-analysis of the deposited data

How the results depend on the processing

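No tested member passed limma's adjusted threshold in the 20 alternatives run per comparison; the planned count tests on recovered reads were not run. The number of all sequences called moved more. In LPS exosomes vs PBS it was 7, with 4 at a mean of 50 or more, 3 with only those 2 groups in the model, and 1 to 10 on leaving out a library (10 without PBS replicate 1, 3 without PBS replicate 2 and 1 without PBS replicate 3). In normal exosomes vs PBS it was 8, with 4 without a filter, 3 at a mean of 50 or more and 2 to 8 on leaving out a library (2 without normal exosomes replicate 1, normal exosomes replicate 3 or PBS replicate 3, 3 without normal exosomes replicate 2 or PBS replicate 2, and 5 without LPS exosomes replicate 2 or 3). The number there rose to 11 at equal totals. It was 10 with median-of-ratios scaling and 10 without limma's trend and robust settings. In LPS exosomes vs normal exosomes it was 7, with 3 to 9 on leaving out a library (3 without replicate 1 of either exosome group, and 4 without LPS exosomes replicates 2 or 3 or normal exosomes replicate 3). With a replicate block the counts were 7, 3 and 8; same-numbered libraries correlated at -0.319 to 0.291 in their deviations from group means, with 4 of 9 over 0.1, so the numbers were not taken as pairing.

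Of 351 member fold changes (log2) under alternatives, 335 kept their direction and 16 reversed; the cause was not tested. At equal totals chi-miR-92a-3p was at -0.0064 in normal exosomes vs PBS, and in LPS exosomes vs normal exosomes hsa-miR-92b-3p_R-1_1ss21CT was at 0.14, lgi-miR-92_1ss9TC at 0.11 and lgi-miR-92_R+2_1ss10TC at 0.21. The other 12 came from leaving out a library. In LPS exosomes vs PBS such values ran from -1.11 to 0.0393 for chi-miR-92a-3p and from -0.28 to 0.0151 for PC-3p-31_188903 (highest without PBS replicate 1). In normal exosomes vs PBS they ran from -0.68 to 0.31 for lgi-miR-92_R+2_1ss10TC (0.0055 without PBS replicate 1) and from -0.78 to 1.02 for chi-miR-92a-3p. In LPS exosomes vs normal exosomes they ran from -0.35 to 0.0475 for hsa-miR-92b-3p_R-1_1ss21CT, from -0.0171 to 0.0963 for the cte-miR-92b line, from -0.65 to 0.34 for lgi-miR-92_R+2_1ss10TC (0.06 without LPS exosomes replicate 1), from -1.70 to 0.10 for chi-miR-92a-3p and from -0.0543 to 0.0896 for PC-3p-31_188903 (-0.0045 without normal exosomes replicate 2). The exact permutation p of the core ratios, on leaving out a library, ran from 0.0143 to 0.196 for the cte-miR-92b line over lgi-miR-92_1ss9TC, from 0.0286 to 0.118 for PC-3p-31_188903 over lgi-miR-92_1ss9TC, and from 0.00714 to 0.125 for PC-3p-31_188903 over the cte-miR-92b line.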
